A study of Chlamydomonas reinhardtii with 28 samples.

Results

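The regions described here are the wide H3K9me1 peaks that lie in the interior of Chlamydomonas reinhardtii chromosomes but outside the longest H3K9me1 domain of each chromosome. They were chosen by measured values of the wild-type (WT) H3K9me1 peak lists: a width of at least 5000 bp, a midpoint over 50 kb from both ends of chromosomes 1 to 17, and a position outside the longest interval of the chromosome. Intervals were formed by joining the H3K9me1 peaks of both WT strains over gaps of up to 5 kb. The rule found 131 peaks in WT mt+ and 157 in WT mt-, or 288 of the 152930 peaks in the 18 deposited lists. These are called the wide interior peaks below. Their width, place and presence in the WT list of their own strain were fixed by the choice and are given as a description.

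Chromatin immunoprecipitation with sequencing (ChIP-seq) mapped 4 histone marks in vegetative cells grown in TAP medium, in the strains CC-5155 (mating type plus, mt+) and CC-5325 (mating type minus, mt-). The genotypes were WT and 2 knockouts, named dnmt1 and set3 after the gene lost. All 4 marks (H3K4me1, H3K4me3, H3K9me1 and H3K9me3) were measured in WT and dnmt1, but H3K9me1 alone in set3, with 1 library per combination. Nothing in the labels says whether a mutant line is 1 clone, and strain and mating type cannot be told apart. A peak list holds no value for the deleted genes, so the knockouts were not checked. Replicate error could not be had and no p-value is given: values are given for both strains, and both mutants of a strain are set against the same WT library. For H3K9me1 on the chosen peaks that WT library is the one of the other strain, so those comparisons cross strains. For the other marks they stay within a strain. Shares of peaks carry a Wilson 95% interval, which covers counting error only.

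Monomethylation of lysine 9 of histone H3 is, in this alga, a mark of silenced chromatin, and it accompanies repeated and transposon sequence. SET3 is a SET-domain protein that places this mark. DNMT1 is a maintenance methyltransferase that copies cytosine methylation after DNA replication. H3K4me3 marks the start regions of active genes, H3K4me1 is in this alga also found on silenced chromatin, and H3K9me3 is in many organisms a mark of heterochromatin.

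The list totals set the scale. The WT H3K9me1 lists held 3831 peaks in mt+ and 4113 in mt-, the dnmt1 lists 1248 and 2716, and the set3 lists 2785 and 6160. The number of reads is not given in peak lists, so the depth is unknown. Peaks just past the authors' q-value threshold (−log10 q from 2 to 3) had a median fold enrichment of 1.56 and 1.54 in the WT H3K9me1 lists. The same figure was 1.91 and 1.65 in dnmt1 and 1.92 and 1.85 in set3, so a weak region needed a somewhat higher fold to be listed there. Fold and q-values are the authors'. A region without a mutant peak is one without a called peak, and its signal may lie below the threshold.

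The wide interior peaks summed to 1.36 Mb in mt+ and 1.59 Mb in mt-. They were 3.42% and 3.82% of the peaks of their lists and 18.1% and 20.1% of the covered length. The mt+ peaks had a median width of 7.84 kb and the mt- peaks one of 7.61 kb, with 43 and 46 peaks of at least 10 kb and 9 and 13 of at least 20 kb. The widest was 1 region of chromosome 1, from 1151888 to 1202710 in mt+ and from 1151889 to 1202669 in mt-, which is 50.8 kb in both strains. Median fold enrichment at the summit was 4.81 in mt+ and 4.203 in mt-, against 2.61 and 2.46 over each whole list. The highest fold in mt+ was 6.65, on chromosome 12 from 6733732 to 6747811, and the highest in mt- was 5.74, on chromosome 15 from 2491356 to 2508014.

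At the width limit, the narrowest 3 peaks taken in were 5015, 5026 and 5030 bp wide in mt+ and 5001, 5003 and 5015 bp in mt-. The widest 3 left out were 4994, 4993 and 4990 bp wide in mt+ and 4985, 4981 and 4933 bp in mt-. Many peaks lay close to the limit, with 45 in mt+ and 61 in mt- between 5 and 6 kb.

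Seen as intervals rather than single peaks, the wide interior peaks fell into 113 joined stretches. Of these, 1 reached into the outer 50 kb of a chromosome and is left out of the interval values. The other 112 had a median length of 16.6 kb, a longest length of 192 kb and a summed length of 3.18 Mb. In 69 of them both strains had a wide peak, in 13 only mt+ had one, and in 30 only mt-. All 17 chromosomes had at least 1 wide interior peak. Chromosome 15 stood apart in number, with 36 peaks of 307 kb in mt+ and 39 peaks of 391 kb in mt-. The next highest number was 13 in mt+ and 16 in mt-, on chromosome 12. The first 1 Mb of chromosome 6, the arm that carries the mating-type region, held 1 peak in mt+ and 4 in mt-.

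The WT lists of the strains placed these peaks at the same sites. In mt+, 130 of 131 wide interior peaks (99.2%, 95.8 to 99.9) were overlapped by a WT mt- peak, where 81.2% of all WT mt+ peaks were. In mt-, 155 of 157 (98.7%, 95.5 to 99.7) were overlapped by a WT mt+ peak, where 75% of all WT mt- peaks were. Wider peaks have more room for an overlap, so the covered length is given too. WT mt- peaks covered 97.3% of the base pairs of the mt+ peaks, and WT mt+ peaks covered 89.9% of those of the mt- peaks. Over all WT peaks these shares were 89.7% in mt+ and 85.1% in mt-, a smaller difference than in the touched shares. The values of 97.3% and 89.9% serve below as the WT level, because the list of the same strain covers the peaks completely by the choice.

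A few peaks were nearly private to a strain. Under 50% of the base pairs were covered in the other WT list for 3 mt+ peaks and 10 mt- peaks. On chromosome 16 the mt- peak from 3176156 to 3195680, 19.5 kb wide with a fold of 3.85, was covered to 0% in WT mt+. Within 20 kb of it the H3K4me3 lists held 10 peaks in each of WT mt+, WT mt-, dnmt1 mt+ and dnmt1 mt-. On chromosome 11 the mt+ peak from 3515053 to 3520839, 5.79 kb wide with a fold of 5.13, was covered to 0% in WT mt-. There too all 4 H3K4me3 lists held the same number of peaks within 20 kb, which was 5. H3K4me3 peaks next to both sites were thus called in both strains.

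Near the start of chromosome 6 the picture was different. There 3 neighbouring mt- peaks, from 491439 to 499526, from 499850 to 514005 and from 514151 to 520819, were covered in WT mt+ to 22.3%, 1.97% and 0%. Around the first of them H3K4me3 peaks within 20 kb numbered 8 in WT mt- and 7 in dnmt1 mt-, but 3 in WT mt+ and 3 in dnmt1 mt+. The files also name a separate sequence called mating_type_plus. Peaks of several marks were therefore fewer here in the mt+ lists, and whether fewer mt+ reads can be placed on this part of chromosome 6 was not tested. In set3 mt- the 3 peaks were covered to 54.6%, 31.5% and 25.6%, and in dnmt1 mt- to 22.6%, 3.91% and 3.49%.

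In cells without DNMT1 most of the H3K9me1 peak length of the wide interior peaks was absent. In mt+, dnmt1 peaks covered 9.96% of the base pairs, against 97.3% in the other WT list, and in mt- 17.4% against 89.9%. A dnmt1 peak touched 60 of 131 wide interior peaks in mt+ (45.8%, 37.5 to 54.3). The mt- strain had a touching peak on 87 of 157 (55.4%, 47.6 to 63.0). Over all WT peaks the touched share was 10.2% in mt+ and 16% in mt-. Their base pairs were covered by dnmt1 peaks to 10.3% and 16.7%, close to the values of the wide interior peaks. At least 50% of the length was covered in 6 wide interior peaks of mt+ and 10 of mt-, where 4.02% and 5.54% of all WT peaks were. In the dnmt1 lists of both strains no peak at all lay on 43 of the mt+ peaks and 66 of the mt- peaks. That count was not made over all WT peaks. Of these, 3440 of 3831 in mt+ and 3456 of 4113 in mt- had no dnmt1 peak of their own strain.

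In cells without SET3 the picture was similar in size. The set3 peaks covered 14.9% of the base pairs in mt+ and 17.6% in mt-. They touched 82 of 131 wide interior peaks in mt+ (62.6%, 54.1 to 70.4), while for mt- the count was 106 of 157 (67.5%, 59.8 to 74.3). Over all WT peaks 13.5% and 17.5% were touched, and set3 peaks covered 11.0% and 14.1% of the base pairs. At least 50% of the length was covered in 12 and 19 of them, where 4.07% and 6.01% of all WT peaks were. No set3 peak of either strain lay on 36 of the mt+ peaks and 49 of the mt- peaks. This too was not counted over all WT peaks, of which 3313 of 3831 and 3393 of 4113 had no set3 peak of their own strain.

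**Figure D1:**
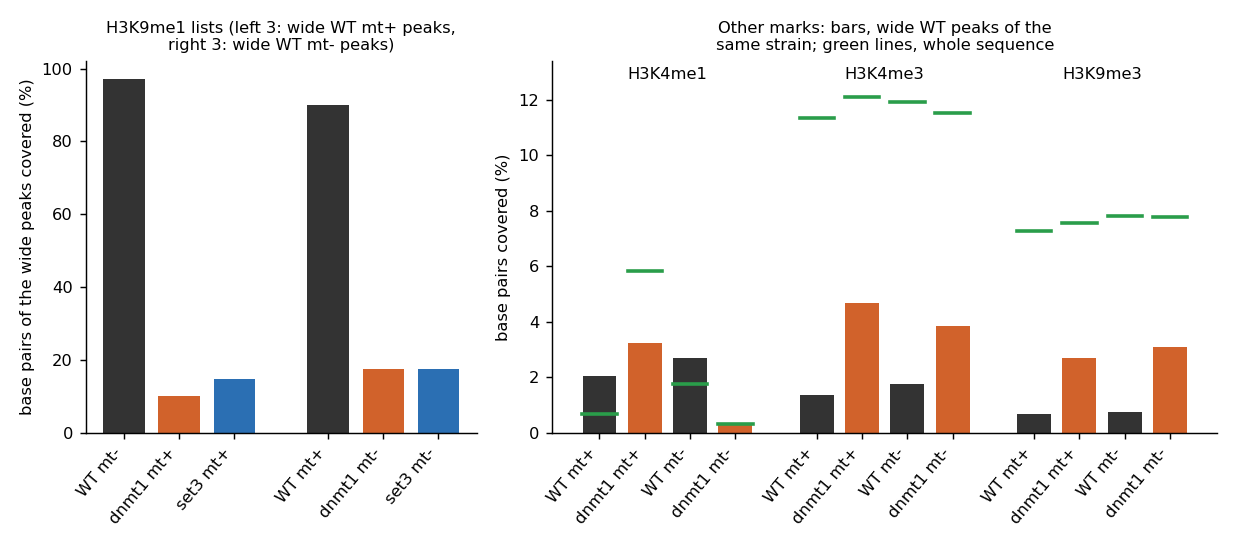
Left: percentage of base pairs of the wide interior peaks covered by H3K9me1 peaks of the other WT strain (dark), dnmt1 (orange) and set3 (blue), 1 library per bar. Right: percentage covered by the other 3 marks in the same strain, with the percentage of the whole sequence as a green line. H3K9me1 covered 97.3% and 89.9% in WT and 9.96% to 17.6% in the mutants, while H3K4me3 and H3K9me3 covered more in dnmt1 than in WT in both strains.

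Wider WT peaks were touched by a mutant peak more often, and a wider peak offers more base pairs to touch. Of peaks of 5 to 6 kb, dnmt1 peaks touched 14 of 45 in mt+ and 24 of 61 in mt-, and of peaks of at least 20 kb 8 of 9 and 11 of 13. For set3 the counts were 21 of 45 and 30 of 61 at 5 to 6 kb, and 9 of 9 and 11 of 13 at 20 kb and over. The covered length set the mutants apart in the extreme width classes. From the narrowest to the widest class it was 5.48% and 16.6% in dnmt1 mt+ and 7.72% and 31.9% in dnmt1 mt-. In set3 it was 14.0% and 11.3% in mt+ and 14.0% and 13.6% in mt-. The widest class, of 9 and 13 peaks, thus exceeded the narrowest in both dnmt1 lists and in neither set3 list, with no test of that difference. The change with width was not steady. In dnmt1, peaks of 8 to 12 kb were covered to 10.8% (mt+) and 17.5% (mt-), but those of 12 to 20 kb to 8.53% and 9.44%. In set3 the highest values were in middle classes, 17.5% at 8 to 12 kb in mt+ and 26.4% at 6 to 8 kb in mt-.

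**Figure D2:**
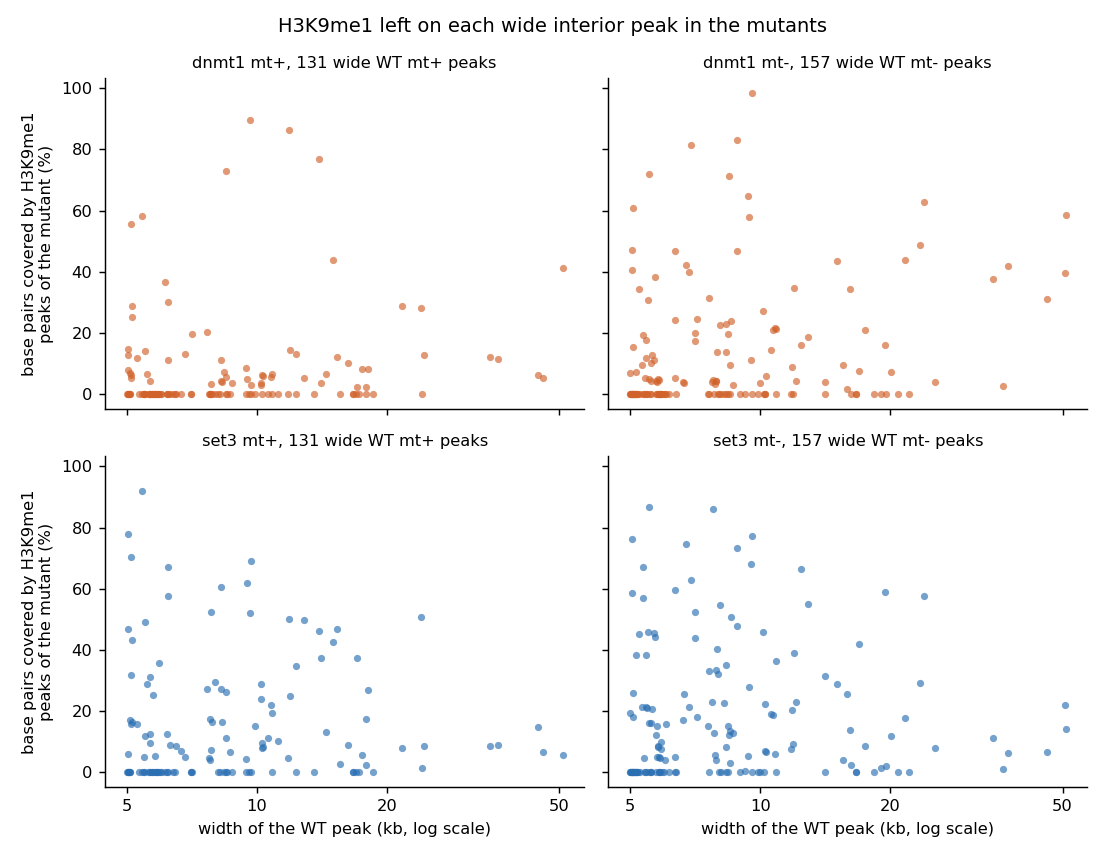
Percentage of each wide interior peak covered by H3K9me1 peaks of dnmt1 (orange, top) and set3 (blue, bottom) of the same strain, against its WT width on a log scale, 1 point per WT peak. Many points lie at 0%, and points at or above 50% number 6 and 10 for dnmt1, and 12 and 19 for set3.

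What remained was called as short peaks, as elsewhere in the mutant lists. On the wide interior peaks lay 171 dnmt1 peaks in mt+ and 330 in mt-, with median widths of 510 and 506 bp. The set3 lists had 263 and 347 there, with median widths of 539 and 562 bp. The other peaks of these lists were narrower, with medians of 400 and 337 bp in dnmt1 and 391.5 and 367 bp in set3. All 171 and 330 dnmt1 peaks lay wholly inside the WT peak they touched, as did 262 of 263 and 345 of 347 set3 peaks. Mutant peaks of at least 5 kb on these sites numbered 0 (mt+) and 2 (mt-) for dnmt1, and 0 and 1 for set3. The whole lists held 18 and 32 such peaks for dnmt1, and 6 and 7 for set3. The greatest number of mutant peaks on 1 wide peak was 21 (mt+) and 28 (mt-) for dnmt1, and 12 and 19 for set3.

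Mutant peaks covered less of the wide peaks close to their edges. In the first 0.5 kb inside, coverage was 5.15% and 7.16% in dnmt1, and from 1 to 2.5 kb inside it was 10.1% and 15.7%. The set3 values were 4.42% and 7.29% in the first 0.5 kb, and 18.5% and 21.6% from 1 to 2.5 kb. With each wide peak cut into 10 equal parts, set3 peaks covered 9.89% (mt+) and 13.2% (mt-) of the outer parts at both ends, and 15.7% and 18.7% of the middle pair. In dnmt1 mt+ the outer and middle values were 9.63% and 9.73%, and in dnmt1 mt- 14.99% and 20.4%. At this coarser scale the outer and middle values were nearly equal in dnmt1 mt+, and the middle was higher in the other 3 lists.

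Single intervals show how unevenly the mark was left. The longest, on chromosome 12 from 6637018 to 6828974 (192 kb), held 7 wide peaks in mt+ and 6 in mt-. H3K9me1 peaks covered 81.1% of it in WT mt+ and 78.9% in WT mt-. The dnmt1 values were 2.29% in mt+ and 15.3% in mt-, and the set3 values 17.6% and 17.7%.

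On chromosome 1 from 1151888 to 1233324, the interval with the widest single peak, WT coverage was 86.1% and 82.8%. Here dnmt1 kept more than set3, with 26.2% and 39.9% in dnmt1 against 3.35% and 8.98% in set3. The same order was found on chromosome 11 from 3036692 to 3050871, where WT coverage was 64.8% and 59.9%, dnmt1 coverage 43.7% and 42.7%, and set3 coverage 0% and 7.30%. The mt- peak of that chromosome 11 interval had a WT fold of 1.62, near the bottom of the wide interior peaks.

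Other intervals had the opposite order. On chromosome 3 from 7945645 to 7954791 WT coverage was 90.05% in mt+ and 94.9% in mt-. The dnmt1 lists had 9.85% and 3.79% there, and the set3 lists 54.6% and 81.5%. On chromosome 15 from 2675891 to 2691923, WT had 92.7% and 95.7%, dnmt1 10.1% and 12.5%, and set3 31.6% and 58.7%. In these intervals, named for high mean coverage in a mutant, the order was the same in mt+ and mt-. Elsewhere it could change with the strain. On chromosome 17 from 6022121 to 6090548 dnmt1 had 16.8% and 42.0%, and set3 18.3% and 22.9%. On chromosome 12 from 6836195 to 6925216 dnmt1 had 13.3% and 37.2%, and set3 20.2% and 23.5%.

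In 2 intervals both mutants kept much of the mark. On chromosome 6 from 7255943 to 7261481, a single 5.54-kb stretch, WT had 97.7% and 100%, dnmt1 57.0% and 71.9%, and set3 89.8% and 86.7%. On chromosome 13 from 4368391 to 4416730 (48.3 kb) WT had 94.9% and 91.2%, dnmt1 75.3% and 72.3%, and set3 42.9% and 60.4%. The chromosome 13 interval lies 5.75 kb from the longest interval of that chromosome, just past the joining gap. Its wide peaks had low WT folds, from 1.22 to 2.00 in mt+ and from 1.46 to 1.88 in mt-. Without it dnmt1 peaks covered 7.995% and 16.3% of the wide interior peaks, and set3 peaks 14.0% and 16.7%.

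At the other extreme, some intervals held no H3K9me1 peak in any of the 4 mutant lists. They numbered 22 of the 112, on 11 chromosomes, and other H3K9me1 intervals were not counted in this way. Of the 22, 5 were on chromosome 15, which has 23 of the 112 intervals. The 3 of them with the most wide-peak length ran from 2428386 to 2473612, from 2482942 to 2509872 and from 3641059 to 3668013. Their WT coverage was 61.5% and 88.7%, 60.4% and 73.3%, and 56.8% and 72.4%. The wide peak with the highest fold of WT mt- lies in the second of them. Over the whole of chromosome 15, dnmt1 peaks covered 3.18% of the wide interior peaks in mt+ and 6.32% in mt-, and without that chromosome the values were 11.9% and 21.0%. For set3 they were 14.6% and 14.6% on chromosome 15, and 14.96% and 18.5% without it.

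**Figure D3:**
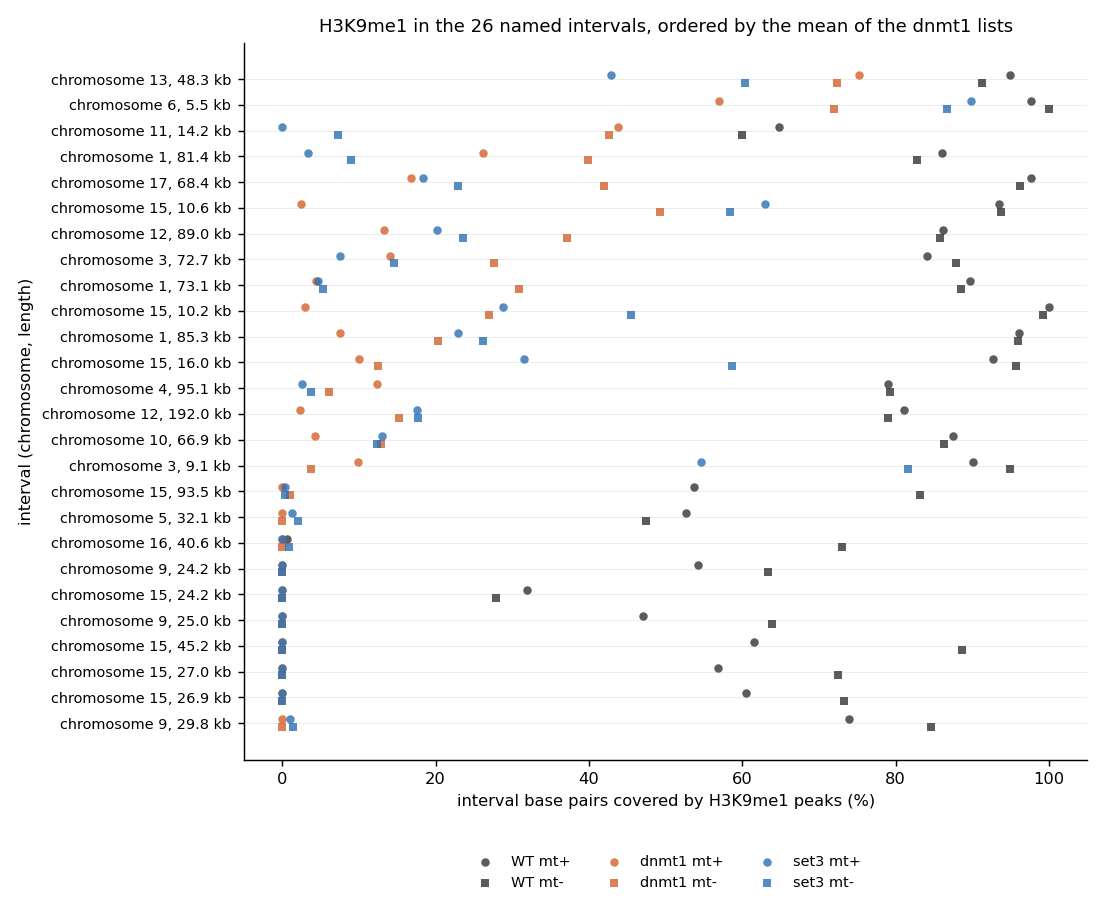
H3K9me1 coverage, in percent of base pairs, of 26 intervals (the longest, and those with the highest or lowest mutant coverage or the most added H3K4me3 or H3K9me3 peaks), ordered from top to bottom by the mean of the dnmt1 lists. Circles are mt+ and squares mt-, 1 library each, and points at the same value overlie each other. The chromosome 13 interval reaches 75.3% and 72.3% in dnmt1, while all mutant points of 6 intervals, 4 of them on chromosome 15, lie at 0%.

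Set beside other H3K9me1 peaks, the wide interior peaks lay between the chromosome ends and the narrow peaks. Wide peaks of the outer 50 kb (29 in mt+ and 27 in mt-) were covered in dnmt1 to 68.0% and 85.9%, and in set3 to 52.1% and 64.4%. Wide peaks inside the longest intervals (107 and 110) were covered in dnmt1 to 6.98% and 21.1%, and in set3 to 11.2% and 13.7%. Interior peaks of 2 to 5 kb outside the longest interval (402 and 435) were covered in dnmt1 to 2.29% and 5.55%, and in set3 to 6.27% and 8.37%. No test of these differences was made, since the groups were cut by H3K9me1 width and place. The order of wide interior peaks and longest intervals in dnmt1 was not the same in the strains.

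The other 3 marks were not used in the choice. H3K4me3, the mark of active gene starts, was sparse on the wide interior peaks of WT cells. It covered 1.35% of their base pairs in mt+ and 1.76% in mt-, against 11.3% and 11.9% of the whole sequence. H3K9me3 covered 0.663% and 0.750%, against 7.27% and 7.80% of the sequence. In WT nearly every H3K9me3 peak lay on an H3K4me3 peak: 53 of 12026 in mt+ and 33 of 12430 in mt- did not. Whether the antibodies share a target was not tested.

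H3K4me3 was instead frequent right beside the wide interior peaks. In the 0.5 kb just outside their edges, WT H3K4me3 peaks covered 36.5% of base pairs in mt+ and 40.05% in mt-. Farther out, from 2 to 5 kb, the mean was 10.9% and 11.2%. In the first 0.5 kb inside it was 6.70% and 8.37%, and from 1 to 2.5 kb inside 0.468% and 0.692%. A WT H3K4me3 peak touched the 500 bp beside 119 of 262 edges in mt+ and 149 of 314 in mt- (45.4% and 47.5%). Of all 500-bp windows of the 17 chromosomes, 18% and 18.6% were touched. H3K9me3 had the same shape: 97 of 262 and 127 of 314 edges were touched (37.0% and 40.4%), against 12.6% and 13.2% of all windows.

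Both edges were flanked by H3K4me3 in 34 wide interior peaks of mt+ and 36 of mt-, 1 edge in 51 and 77, and no edge in 46 and 44. The edges of wide peaks inside the longest intervals were flanked to 45.8% and 48.6%, those of interior peaks of 2 to 5 kb to 35.1% and 35.6%, and those of narrower interior peaks to 13.9% and 17.1%. Beside the wide interior peaks H3K9me1 itself covered 14.2% and 14.1% of the nearest 0.5 kb, and 46.5% and 50.7% from 2 to 5 kb out. The gap in H3K9me1 next to the edge is partly given by how peaks are called, since peaks of 1 list do not touch.

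For H3K4me3 and H3K9me3 the flanks had similar coverage in dnmt1 and WT. In dnmt1 H3K4me3 peaks covered 38.1% and 39.5% of the 0.5 kb outside the edges, and H3K9me3 27.6% and 29.8% against 26.6% and 30.4% in WT. H3K9me1 in the flanks differed: from 2 to 5 kb outside it covered 4.17% and 7.35% in dnmt1 and 8.03% and 9.41% in set3, against 46.5% and 50.7% in WT. Flanked edges numbered 123 of 262 in mt+ and 147 of 314 in mt- for H3K4me3. Inside, from 1 to 2.5 kb, H3K4me3 coverage was 2.41% and 2.29% in dnmt1 against 0.468% and 0.692% in WT.

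**Figure D4:**
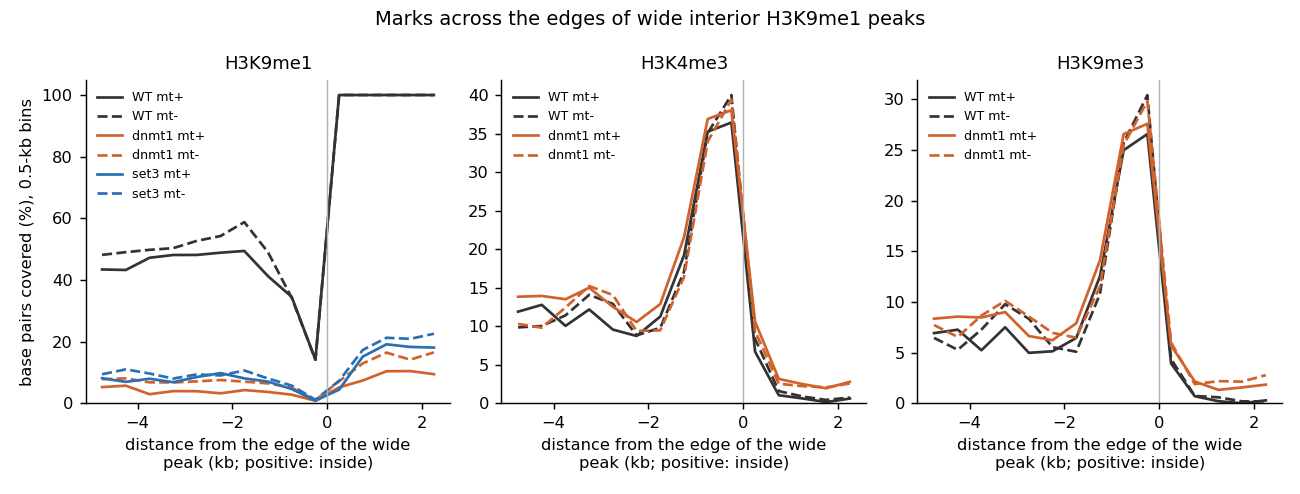
Percentage of base pairs covered by H3K9me1, H3K4me3 and H3K9me3 peaks in 0.5-kb bins across the edges of the wide interior peaks of the same strain. The x axis is the distance from the edge in kb, positive inside. Solid lines are mt+ and dashed lines mt-. WT H3K9me1 is 100% inside by the choice, and H3K4me3 is highest in the bin outside the edge, at 36.5% and 40.05% in WT.

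Inside the wide interior peaks, H3K4me3 and H3K9me3 peaks were more numerous in dnmt1 than in WT of the same strain. H3K4me3 covered 4.69% of base pairs in dnmt1 mt+ and 3.83% in dnmt1 mt-, against 1.35% and 1.76% in WT. Over the whole sequence H3K4me3 covered 12.1% and 11.5% in dnmt1, close to the WT values. Summits inside wide interior peaks numbered 28 in WT mt+ and 80 in dnmt1 mt+, and 42 in WT mt- and 80 in dnmt1 mt-. Chromosome 15 had little of this difference. H3K4me3 peaks touching its wide interior peaks numbered 31 in WT mt+ and 36 in dnmt1 mt+, and 42 in both mt- lists. On the other chromosomes they numbered 55 and 105 in mt+, and 68 and 105 in mt-. H3K9me3 covered 2.69% and 3.10% in dnmt1 against 0.663% and 0.750% in WT, with 51 and 69 summits inside against 12 and 16. The difference was not particular to these peaks. On wide peaks inside the longest intervals H3K4me3 covered 6.11% and 5.65% in dnmt1 against 1.84% and 2.09% in WT. H3K9me3 covered 3.85% and 3.94% there against 1.12% and 1.06%. On wide peaks of the outer 50 kb H3K9me3 covered 26.1% and 32.5% against 2.36% and 0.635%. Interior peaks of 2 to 5 kb had 0.932% and 1.46% against 0.575% and 0.540%.

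Counted by wide interior peak, H3K4me3 touched 60 of 131 in WT mt+ and 75 in dnmt1 mt+, and 76 of 157 in WT mt- and 85 in dnmt1 mt-. Of all WT H3K9me1 peaks, 10.4% and 13.8% were touched in mt+ and 12.4% and 13.1% in mt-. H3K9me3 touched 39 in WT mt+ and 54 in dnmt1 mt+, and 46 in WT mt- and 62 in dnmt1 mt-. The shares over all WT H3K9me1 peaks were 7.15% and 9.08% in mt+, and 7.32% and 9.73% in mt-. Of the WT H3K4me3 peaks that touched a wide interior peak, 28 of 86 in mt+ and 42 of 110 in mt- had their summit inside it.

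Added peaks, meaning dnmt1 peaks that no WT peak of the same strain and mark overlaps, made up much of the difference. Of the H3K4me3 peaks on wide interior peaks, 51 of 141 in dnmt1 mt+ (36.2%) and 42 of 147 in dnmt1 mt- (28.6%) were added, where 3.57% and 1.62% of all dnmt1 H3K4me3 peaks were. They lay on 25 and 20 wide interior peaks. Of the H3K9me3 peaks, 40 of 82 (48.8%) and 56 of 111 (50.5%) were added, where 6.96% and 6.23% of the lists were. They lay on 26 and 27 wide interior peaks, and without the chromosome 13 interval the mt- count was 36 in place of 56. The H3K4me3 peaks that had a WT partner also covered more inside in dnmt1, 31.5 kb against 18.03 kb in mt+ and 36.9 kb against 26.6 kb in mt-.

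The added H3K4me3 peaks had a median fold of 4.03 in mt+ and 3.24 in mt-, below the medians of 5.32 and 4.21 over all H3K4me3 peaks of these dnmt1 lists. Their median width was 618 and 549 bp. Of the 51 in mt+ and 42 in mt-, 42 in each strain were overlapped by an H3K4me3 peak of the other dnmt1 strain, while 7 and 4 were overlapped by one of the other WT strain. Of all added H3K4me3 peaks of the lists, 52% in mt+ and 82.5% in mt- recurred in the other dnmt1 strain. Added H3K9me3 peaks had a median fold of 2.46 and 2.196, and 33 of 40 and 30 of 56 recurred in the other dnmt1 strain, where 62% and 46.6% of all added H3K9me3 peaks did. Without the chromosome 13 interval described above the counts were 28 of 35 and 28 of 36. The dnmt1 libraries of both strains are separate from each other, and the cause of this recurrence was not tested.

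Most added H3K4me3 summits, 42 of 51 in mt+ and 32 of 42 in mt-, lay over 2 kb inside a wide interior peak. Their median distance from the nearer edge was 4.65 kb for mt+ and 4.36 kb for mt-. A wider peak allows a greater distance, and these distances were not set against other positions in the same peaks. The deepest in mt+ was on chromosome 1 from 1276385 to 1277216, 19.5 kb from the edge, with a fold of 4.96. The deepest in mt- was on chromosome 12 from 6753263 to 6753923, 19.9 kb from the edge, with a fold of 4.52. An added H3K9me3 peak lay at both of these sites, from 1276576 to 1277078 and from 6753366 to 6753799.

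The added peaks of the marks overlapped in part. An added H3K9me3 peak overlapped 20 of 51 added H3K4me3 peaks in mt+ and 21 of 42 in mt-. Added peaks of both marks lay on 16 and 15 wide interior peaks. Any dnmt1 H3K4me3 peak overlapped 29 of 40 and 35 of 56 added H3K9me3 peaks. Of all dnmt1 H3K9me3 peaks, only 206 of 12211 in mt+ and 278 of 12467 in mt- lacked an H3K4me3 peak. Overlap was thus less common among the added H3K9me3 peaks than in their lists, but in mt- this came mostly from the chromosome 13 interval. That interval held no dnmt1 H3K4me3 peak, and without it 29 of 35 in mt+ and 35 of 36 in mt- were overlapped. Both marks were called with the same input library within a strain and genotype, per the labels. H3K9me1 left in dnmt1 was touched by 6 of 51 added H3K4me3 peaks in mt+ and 10 of 42 in mt-. That H3K9me1 covered 9.96% and 17.4% of the base pairs of the wide interior peaks, and avoidance was not tested. For added H3K9me3 the counts were 10 of 40 and 26 of 56, and without the chromosome 13 interval 5 of 35 and 6 of 36.

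Counted over the whole intervals, which also hold narrower H3K9me1 peaks and gaps, added H3K4me3 peaks numbered 79 in mt+ and 50 in mt-. They occurred in 29 of the 112 intervals in mt+ and in 14 in mt-, and the 6 richest intervals held 39 and 35 of them. On chromosome 3 from 7112916 to 7185616, H3K4me3 peaks numbered 4 in WT mt+ and 12 in dnmt1 mt+, and again 4 in WT mt- and 12 in dnmt1 mt-. H3K9me3 numbered 3 in both WT lists there, 10 in dnmt1 mt+ and 8 in dnmt1 mt-. On chromosome 10 from 3724464 to 3791401 the WT lists had 6 H3K4me3 peaks each, and the dnmt1 lists 11 and 12. On chromosome 12 from 6637018 to 6828974, the longest interval, the WT lists had 15 and 14, and the dnmt1 lists 24 and 23.

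The interval of chromosome 1 from 1151888 to 1233324 had no H3K4me3 or H3K9me3 peak in WT of either strain. In dnmt1 it held 6 H3K4me3 peaks in mt+ and 4 in mt-, and 2 and 3 H3K9me3 peaks. Added H3K4me3 was found in 3 of the 22 intervals without H3K9me1 in the mutants in mt+, and in 0 in mt-. Among the 3 chromosome 15 intervals described above, from 2428386 to 2473612 H3K4me3 numbered 2 in every one of the 4 lists, and from 3641059 to 3668013 it numbered 1 in every one. From 2482942 to 2509872 there was 1 H3K4me3 peak in dnmt1 mt+ and 0 in the others.

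**Figure D5:**
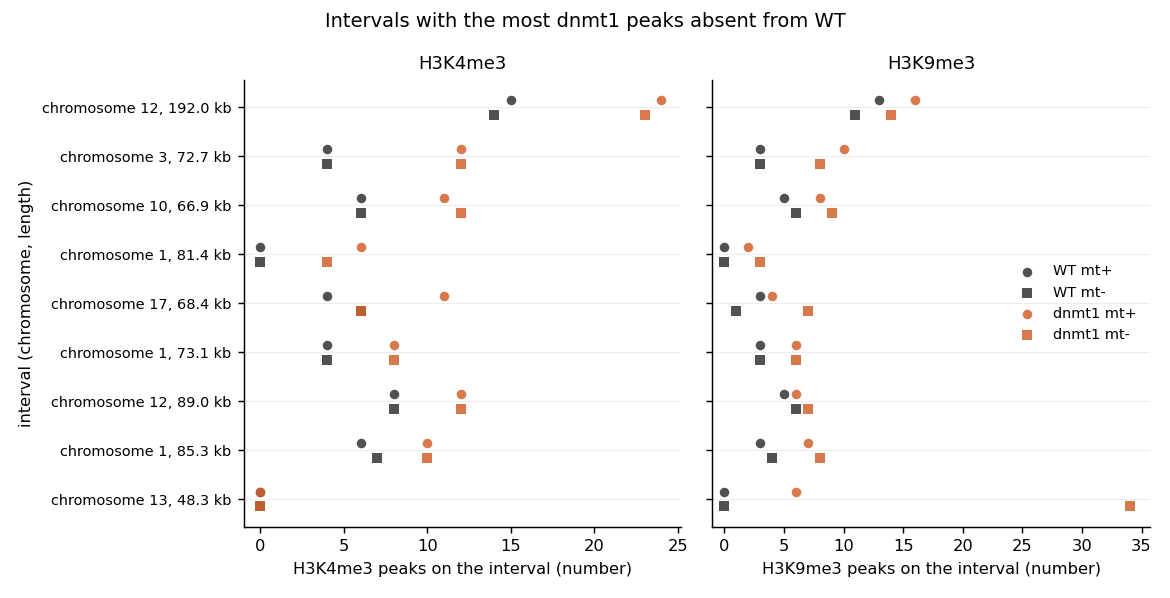
Number of H3K4me3 (left) and H3K9me3 (right) peaks on the intervals with the most added peaks, in WT (dark) and dnmt1 (orange), with circles for mt+ and squares for mt-, 1 library each. H3K4me3 is more numerous in dnmt1 in both strains on most of these intervals, such as 4 against 12 on chromosome 3, and the chromosome 13 interval has no H3K4me3 and 34 H3K9me3 peaks in dnmt1 mt-.

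The chromosome 13 interval from 4368391 to 4416730 differed from these. It held no H3K4me3 peak in WT or dnmt1 and no H3K9me3 peak in WT, but 6 H3K9me3 peaks in dnmt1 mt+ and 34 in dnmt1 mt-. They covered 4.10% and 50.6% of the interval, and H3K9me1 covered over 70% of it in the same cells, as given above. On the wide interior peaks as a whole, H3K9me3 peaks without an H3K4me3 peak were 0 of 44 and 2 of 59 in the WT lists. In the dnmt1 lists they were 11 of 82 and 22 of 111, and most of the 22 in mt- belonged to the chromosome 13 interval. The dnmt1 peaks of this kind lay on 5 wide interior peaks in each strain.

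H3K4me1 gave no common direction. In WT it covered 2.04% of the wide interior peaks in mt+ and 2.69% in mt-, above the 0.693% and 1.77% of the whole sequence. In dnmt1 it covered 3.22% in mt+ and 0.300% in mt-. The lists themselves differed as much, with 2067 peaks in WT mt+, 5151 in WT mt-, 12718 in dnmt1 mt+ and 1104 in dnmt1 mt-. Over the whole sequence dnmt1 covered 5.81% in mt+ and 0.331% in mt-, so the wide interior peaks were below the sequence level in both dnmt1 lists. With −log10 q of at least 5, H3K4me1 covered 0.134% of the wide interior peaks in WT mt+, 0.185% in dnmt1 mt+, 0.0388% in WT mt- and 0.0173% in dnmt1 mt-.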

How the data were processed

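The 18 deposited lists hold narrow peaks that the authors called on single libraries. Per the submitters' processing notes, the tools were MACS2 2.2.7.1, Bowtie2 2.4.2, Trim Galore 0.6.7, deepTools 3.5.1 and Picard, with no settings named. For the genome, no build is named in the sources used here, so no gene was named and no sequence is shown. The 10 input samples were not analysed here. For each peak the authors deposited a fold enrichment (a linear ratio), a −log10 p-value, a −log10 q-value and a summit, and these were used only to describe or filter peaks within a list. Per the labels, chromatin was fixed with formaldehyde and sonicated.

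Chromosome ends are the farthest peak end in any list. Starts are counted from 1. A peak touches another at 1 bp or more. Coverage is the share of base pairs under at least 1 peak. Intervals for shares are Wilson 95% intervals (statsmodels 0.14.6, Python 3.11.15, pandas 2.3.3). The interval functions were tested on simulated data, with 0 mismatches in 1620 checks. The regions, the interval rules and the lists compared were chosen with earlier results of these data known. The named intervals are the 10 with the most summed wide peaks, and, for each mutant or mark, the 6 with the highest or lowest mutant coverage or the most added peaks. The closing section gives other thresholds, widths and joining gaps.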

Additional observations from a re-analysis of the deposited data

Results flagged for a closer look

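H3K4me1 on the wide interior peaks differed between dnmt1 and WT in opposite directions in the strains. The dnmt1 value minus the WT value was 1.18 percentage points of covered base pairs in mt+ and -2.39 in mt-. The difference between the strains was not tested, since each value comes from 1 library. The numbers of peaks in the H3K4me1 lists moved the same way, from 2067 to 12718 in mt+ and from 5151 to 1104 in mt-, and their part in the result was not tested. With −log10 q of at least 5 the covered shares were 0.134% in WT and 0.185% in dnmt1 for mt+, and 0.0388% and 0.0173% for mt-, and with at least 10 all 4 were 0%. H3K4me3 and H3K9me3 had the same sign in both strains.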

How the results depend on the processing

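Over 14 alternative settings, 310 of 378 recomputed values stayed within the Wilson interval of the first value or, for counts, within 1.5 times of it. The other 68 moved. The Wilson interval was also used for covered base pairs, with the number of wide interior peaks as its sample size. It is wide for small covered shares. For H3K4me1 in dnmt1 mt-, 0.300% and 0.0173% (−log10 q of at least 5) counted as the same. The touched shares depended most on the settings. In the order dnmt1 mt+, set3 mt+, dnmt1 mt- and set3 mt-, they were 32.8%, 50.4%, 45.9% and 56.1% with −log10 q of at least 5, and 13.0%, 23.7%, 21.7% and 24.8% with at least 10. With at least 10% of the peak covered they were 22.1%, 41.2%, 35.7% and 48.4%, and with at least 50%, 4.58%, 9.16%, 6.37% and 12.1%. A minimum width of 4000 bp gave 35.5%, 51.8%, 45.9% and 57.1%, and one of 10000 bp gave 65.1%, 81.4%, 67.4% and 80.4%. The share for set3 mt+ was 53.9% with gaps of up to 10 kb, and that for dnmt1 mt- was 68.5% with the longest intervals kept in.

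With −log10 q of at least 10 the covered length was 5.03%, 5.13%, 7.89% and 6.71% in the same order. H3K4me1 coverage rested on weak peaks. With −log10 q of at least 5 it was 0.134% in WT mt+, 0.185% in dnmt1 mt+, 0.0388% in WT mt- and 0.0173% in dnmt1 mt-, and with at least 10 it was 0% in all 4. The share of mt- peaks covered to at least 50% in WT mt+ was 93.6%. The wide interior peaks of mt+ numbered 197 at 4000 bp, 43 at 10000 bp and 238 with the longest intervals kept in, and those of mt- 46 at 10000 bp and 267 with the longest intervals. The intervals numbered 174 at 4000 bp and 33 at 10000 bp. Chosen after seeing the data, leaving out the chromosome 13 interval gave 36 added H3K9me3 peaks in mt- in place of 56, and leaving out chromosome 15 changed no share or count of touched or added peaks beyond these limits. No paired analysis was possible because each combination has 1 library. The depth of the libraries is unknown, which limits every statement on an absent peak.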

Other observations

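Wide interior peaks close to the longest interval of their chromosome were touched by dnmt1 peaks more often than those farther away. Within 100 kb, 19 of 26 in mt+ and 21 of 25 in mt- were touched, with 21.2% and 29.9% of base pairs covered. Farther away the counts were 41 of 105 and 66 of 132, with 6.64% and 14.5% covered. Without the chromosome 13 interval the nearby values were 16 of 23 and 18 of 22, with 13.2% and 24.5% covered, and without chromosome 15 the distant ones were 30 of 72 and 48 of 95, with 7.80% and 17.3% covered. For set3 the covered shares nearby and farther away were 14.5% and 14.998% in mt+, and 19.0% and 17.2% in mt-. These classes were formed after the data were seen, and no test was made.

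Split at their own median fold, the stronger WT peaks were touched more often than the weaker ones in all 4 mutant lists. In dnmt1 the counts were 34 of 66 against 26 of 65 in mt+ and 54 of 79 against 33 of 78 in mt-. In set3 they were 46 of 66 against 36 of 65 and 63 of 79 against 43 of 78. The covered length followed this order in both set3 lists and in dnmt1 mt-, but in dnmt1 mt+ it was 7.46% in the stronger and 12.7% in the weaker peaks.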
